A study of Mus musculus with 18 samples.

Results

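The clustered protocadherins are 57 of the 54281 genes of the deposited count table. They were chosen as the rows whose gene ID, with its version dropped, carries in GENCODE M21 a protein-coding symbol of the Pcdha, Pcdhac, Pcdhb, Pcdhga, Pcdhgb or Pcdhgc series. They lie side by side on mouse chromosome 18 in the GRCm38 assembly, as 14 alpha members between 36930184 and 37187661, 22 beta members between 37264938 and 37524479, and 21 gamma members between 37661793 and 37841873. Both of the rows that share the M21 symbol Pcdha11 are members, and the one with the ID ENSMUSG00000007440.10 is called Pcdha10 here, after RefSeq. RNA was sequenced from the cerebral cortex of male C57BL/6J mice labelled Mcph1KO, a knockout of the microcephaly gene Mcph1, and from WT C57BL/6J mice. Each genotype had 2 libraries at embryonic stage E17.5, at the postnatal stage P4, and in adults of 6 weeks (A6w) and 18 weeks (A18w). The cortex groups thus numbered 8, and a ninth group held 2 libraries of wild-type mouse embryonic stem cells of the R1 line (mESC), an established line that stands for 1 genotype in culture. The knockout's construct is not given in the sources used here, and no allele or agent other than the Mcph1 knockout is named for any group.

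Clustered protocadherins are cell surface adhesion proteins that give each neuron a molecular identity. In the alpha and gamma clusters, a long variable exon with its own promoter encodes the outer and transmembrane parts of each member, and it is spliced to constant exons that encode a cytoplasmic end common to the cluster. Beta members are encoded by single exons and have no such constant part. A neuron picks a small set of the alternate members by promoter choice, with the DNA-binding protein CTCF and the cohesin ring bringing the chosen promoters to distant enhancers, whereas the C-type members Pcdhac1, Pcdhac2, Pcdhgc3, Pcdhgc4 and Pcdhgc5 are used more widely. Proteins of the same kind bind each other across cells, and in mice this recognition serves the self-avoidance of dendrites, the spacing of axons and the survival of interneurons.

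The 18 libraries held between 23531045 and 32041849 estimated counts, and the members took 0.111% to 0.186% of the counts of a cortex library. All 57 members passed the filter on low counts in the cortex, and 56 passed it among the wild-type libraries, the exception being Pcdhb1. Levels are CPM, which are counts scaled to a common library size, here on TMM library sizes, and a called member is one with a Benjamini-Hochberg adjusted p under 0.05 over all genes in edgeR's quasi-likelihood test. Log2 differences are given with their standard errors. Whether libraries came from separate animals is not stated in the labels, so p-values measure the spread between libraries, which may be technical. Members of the alpha and of the gamma cluster share their constant exons, so reads from there were split between members by estimation. Of the 31-base stretches of a member's longest transcript, a median of 35.7% in alpha, 88.2% in beta and 52.1% in gamma occurred in no other transcript. Among the members described below, this share was lowest in Pcdha4, at 7.77%. Over all 57 members the lowest was 0.62%, in a gamma member that enters the gamma sums and shares. In bulk tissue, fewer cells that make a transcript and less of it per cell cannot be told apart.

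The counts of Mcph1 itself showed no loss in the libraries labelled Mcph1KO. Mcph1 had 12.2 and 13.3 CPM at E17.5, 14.7 and 13.4 at P4, 16.2 and 16.7 at A6w, and 13.9 and 11.7 at A18w in libraries labelled Mcph1KO, against 12.5 and 10.1, 12.3 and 10.7, 9.66 and 9.02, and 8.36 and 9.72 CPM in WT libraries at those stages. Of the 8 Mcph1KO libraries, 7 stood above both WT libraries of their stage. Averaged over the 4 stages the log2 difference was 0.44 ± 0.09, with an adjusted p of 0.368 in edgeR's quasi-likelihood test, and DESeq2 called Mcph1 higher in Mcph1KO. Gene-level counts do not show which exons the reads came from, so they check the label only where the deletion removes counted sequence. Every direction below compares libraries as labelled.

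All members called between genotypes were alpha members. Averaged over the 4 stages, Pcdha1, Pcdha2 and Pcdha3 rose in libraries labelled Mcph1KO, and Pcdha6 and Pcdha9 fell. Of the 14 alpha members these 5 were called, against 0 of 22 beta and 0 of 21 gamma members in edgeR's test. Over all 19199 genes tested, 8 (0.0417%) were called higher and 2 (0.0104%) lower, so the alpha cluster held 3 of the 8 and both of the 2. At an unadjusted p under 0.05, 5 alpha members were higher and 2 lower, 9 beta members were higher and none lower, and 2 gamma members were lower and none higher, where 251 genes (1.31%) were higher and 174 (0.906%) lower in all. DESeq2 called 5 alpha, 2 beta (Pcdhb1 and Pcdhb12) and 0 gamma members. How many genes DESeq2 called in all, here or at single stages, is not given.

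**Figure D1:**
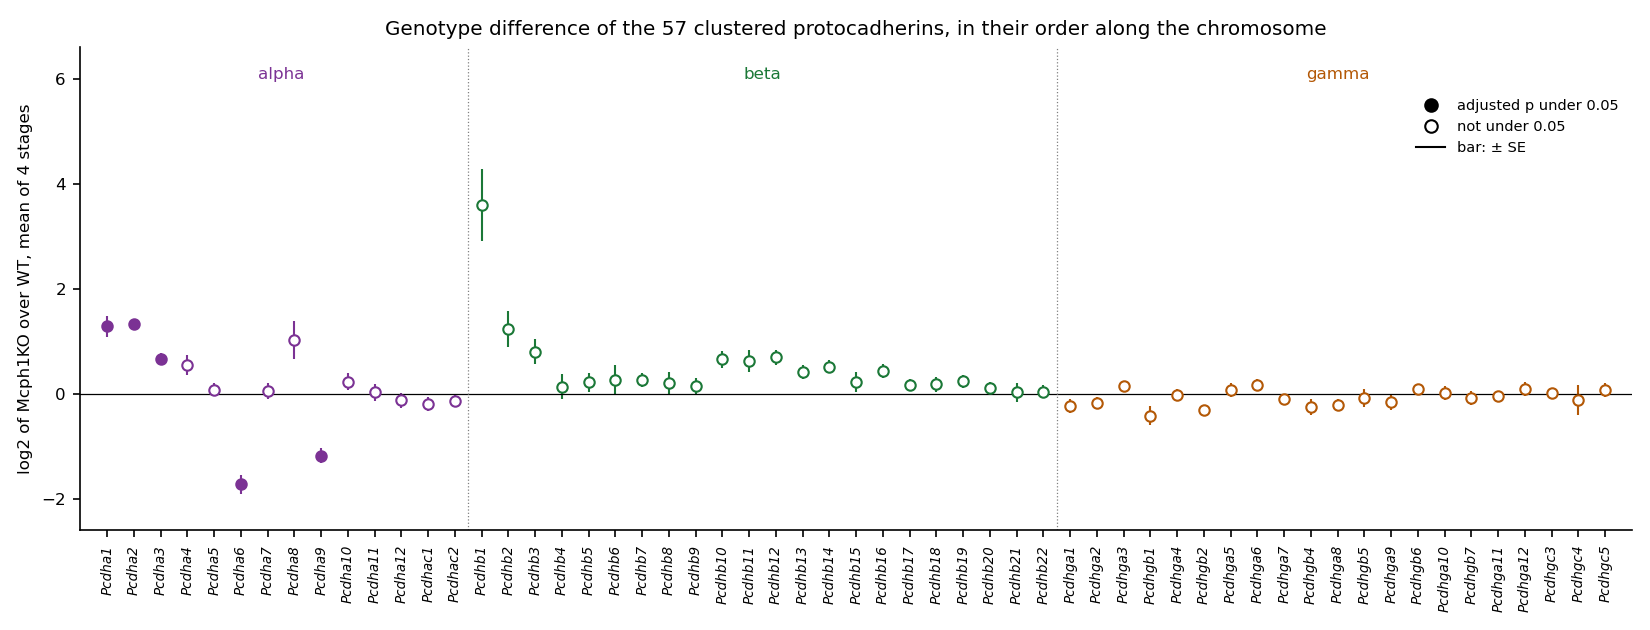
Each point is 1 of the 57 members, in chromosomal order from left to right, and the vertical axis is the log2 of Mcph1KO over WT averaged over the 4 stages, with bars for ± SE. Filled points were called: Pcdha1, Pcdha2 and Pcdha3 lie above 0 at the left end, Pcdha6 at -1.72 and Pcdha9 at -1.18 lie below it, and all 22 beta points lie above 0 without being called.

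Pcdha1, Pcdha2 and Pcdha3 are the first members of the cluster, with starts at 36930184, 36939205 and 36946105. Like all alternate alpha members they encode neuronal surface receptors for contact between like cells. Pcdha2 had 28.1 and 35.4 CPM at E17.5, 51.0 and 58.4 at P4, 17.3 and 16.5 at A6w, and 12.3 and 14.2 at A18w in Mcph1KO libraries, against 12.5 and 14.8, 24.4 and 33.2, 5.36 and 6.69, and 4.04 and 4.26 CPM in WT libraries. At each stage both Mcph1KO libraries were above both WT libraries, by log2 differences of 1.22, 0.92, 1.48 and 1.67 in the order of the stages. Averaged over the stages, Pcdha2 was at 29.1 CPM in Mcph1KO and 13.2 CPM in WT, a log2 difference of 1.32 ± 0.10 with an edgeR adjusted p of 0.000169 (n = 8 libraries each).

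Pcdha1 had 5.63 and 8.25 CPM at E17.5, 16.1 and 15.3 at P4, 7.34 and 16.3 at A6w, and 9.39 and 7.54 at A18w in Mcph1KO libraries, against 1.96 and 3.15, 6.42 and 8.89, 3.49 and 6.11, and 3.19 and 3.43 CPM in WT libraries. Pcdha3 had 26.0 and 28.8 CPM at E17.5, 43.5 and 42.6 at P4, 19.5 and 16.5 at A6w, and 9.17 and 12.5 at A18w in Mcph1KO libraries, against 15.3 and 16.6, 29.7 and 33.3, 8.77 and 11.1, and 6.30 and 8.31 CPM in WT libraries. Neither gene's genotypes overlapped at any stage, although the A18w values of Pcdha3 came within 1 CPM of each other. The averaged log2 difference was 1.28 ± 0.20 for Pcdha1 (adjusted p = 0.0418 in edgeR) and 0.66 ± 0.10 for Pcdha3 (adjusted p = 0.0398 in edgeR). Both calls stood close to the threshold: leaving out single libraries, Pcdha1 was called without replicate 1 of A6w Mcph1KO and Pcdha3 without replicate 1 of A18w Mcph1KO, and neither was called without any of the other 14 libraries. Pcdha2, Pcdha6 and Pcdha9 were called in all 16 of those fits.

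Pcdha6 and Pcdha9 start further along, at 36967631 and 36997880. Pcdha6 had 3.56 and 4.12 CPM at E17.5, 13.6 and 5.92 at P4, 2.27 and 2.99 at A6w, and 2.63 and 5.19 at A18w in Mcph1KO libraries, against 14.3 and 14.6, 25.2 and 28.0, 10.8 and 11.3, and 10.8 and 10.7 CPM in WT libraries. Both Mcph1KO libraries were below both WT libraries at every stage, and the averaged log2 difference was -1.72 ± 0.18 with an edgeR adjusted p of 0.0035. Pcdha9 had 8.60 and 10.5 CPM at E17.5, 24.6 and 16.6 at P4, 4.48 and 7.56 at A6w, and 7.15 and 8.03 at A18w in Mcph1KO libraries, against 17.2 and 23.9, 46.7 and 59.8, 16.2 and 16.4, and 12.2 and 14.2 CPM in WT libraries. Its genotypes did not overlap at any stage either, with an averaged log2 difference of -1.18 ± 0.14 and an edgeR adjusted p of 0.0051. Without both E17.5 libraries numbered 1, Pcdha2 alone of the 5 was still called, and the adjusted p of Pcdha6 and of Pcdha9 was 0.0584.

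**Figure D2:**
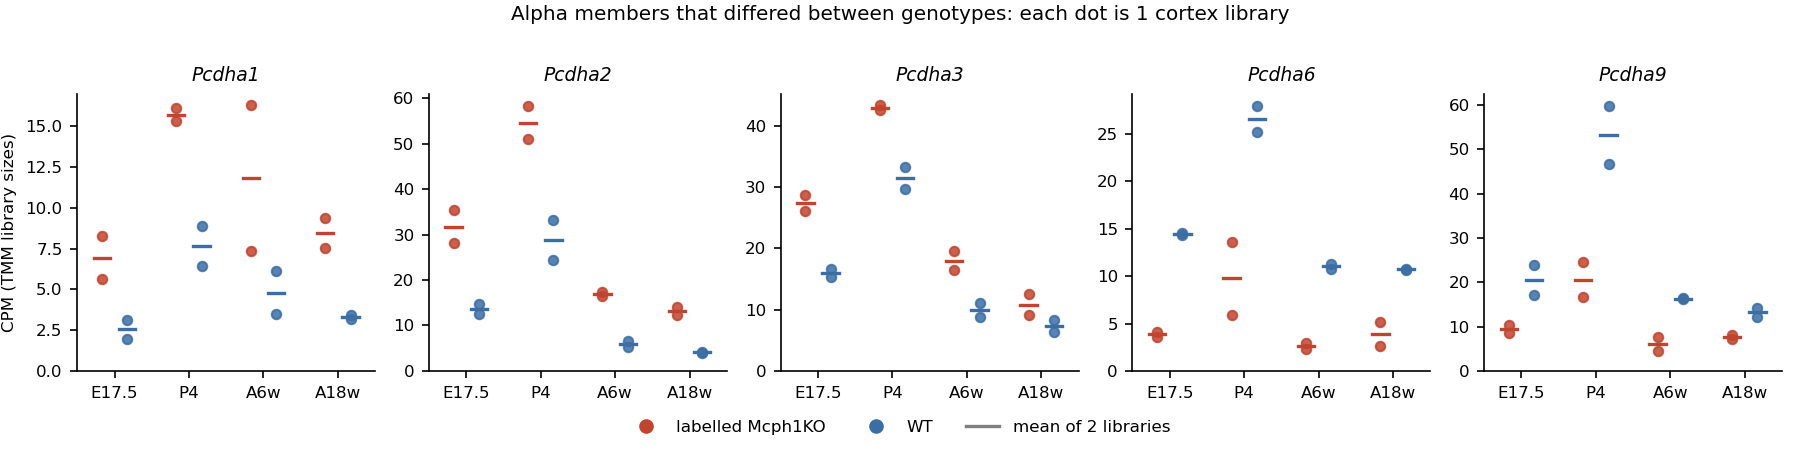
Levels of Pcdha1, Pcdha2, Pcdha3, Pcdha6 and Pcdha9 in CPM for each of the 16 cortex libraries, as dots by stage, with Mcph1KO left of WT and a line at the mean of 2 libraries. The Mcph1KO dots lie above the WT dots at all 4 stages in the first 3 panels and below them in the other 2.

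Averaged over the 8 libraries of each genotype, the rises and falls were of like size in counts. Both groups summed here were made of members called higher or lower in these same libraries. Their opposite directions therefore follow from that choice. Summed, Pcdha1 to Pcdha3 stood at 64.7 CPM in Mcph1KO and 33.9 CPM in WT, a difference of 30.8 CPM. Pcdha6 and Pcdha9 summed to 15.97 CPM in Mcph1KO and 41.5 CPM in WT, a difference of -25.6 CPM. The other 9 alpha members summed to 223 CPM in Mcph1KO and 219.6 CPM in WT. The whole alpha cluster averaged 304 CPM in Mcph1KO and 295 CPM in WT, a log2 ratio of 0.06, or 0.08 when scaled by total counts.

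Expressed as shares of the alpha cluster per kb of transcript, Pcdha1 to Pcdha3 held 29.9% and 28.4% at E17.5, 26.4% and 24.2% at P4, 16.3% and 17.7% at A6w, and 13.9% and 13.7% at A18w in Mcph1KO libraries, against 16.2% and 14.3%, 15.2% and 14.5%, 7.50% and 8.44%, and 6.53% and 6.98% in WT libraries. Pcdha6 and Pcdha9 together held 6.08% and 5.71% at E17.5, 9.10% and 4.68% at P4, 2.49% and 3.76% at A6w, and 4.39% and 5.29% at A18w in Mcph1KO libraries, against 17.1% and 15.9%, 17.9% and 16.9%, 11.4% and 9.74%, and 11.002% and 10.8% in WT libraries. As these groups were chosen by their calls, the directions of their shares were also given by that choice. Taken as 1 group, the 5 members held 18.3% to 36.0% in Mcph1KO libraries and 17.53% to 33.3% in WT libraries. The share that would have to move to turn one library's alpha composition into another's was 19.5 to 22.3 percentage points between genotypes at E17.5, against 5.28 points within Mcph1KO and 8.83 points within WT. At P4 it was 13.3 to 17.7 points between genotypes, against 7.57 within Mcph1KO and 6.68 within WT, and at A18w 13.0 to 19.3 between genotypes, against 6.92 within Mcph1KO and 8.30 within WT. At A6w the 11.9 to 16.7 points between genotypes stood just above the 11.6 points within Mcph1KO and above the 5.32 points within WT.

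Among alpha members that were not called, the largest averaged differences were those of Pcdha8, at 3.60 CPM in Mcph1KO and 1.87 CPM in WT (log2 1.02 ± 0.35), and Pcdha4, at 29.8 CPM in Mcph1KO and 21.5 CPM in WT (log2 0.54 ± 0.19). Genotypes of Pcdha8 overlapped at A6w, where Mcph1KO libraries had 3.01 and 2.31 CPM and WT libraries 1.75 and 4.58 CPM. Over the 9 uncalled alpha members the differences ran between -0.19 and 1.02. The C-type Pcdhac2 had a lower share of its cluster in Mcph1KO at E17.5 (14.0% in Mcph1KO and 19.7% in WT), at A6w (34.0% in Mcph1KO and 36.0% in WT) and at A18w (29.6% in Mcph1KO and 34.3% in WT) with no overlap, and overlapped at P4 (18.1% in Mcph1KO and 18.2% in WT). Its averaged level differed by -0.13 on the log2 scale and was not called.

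No beta member passed the test, though all 22 lay on the same side of 0. They had an averaged log2 difference above 0, between 0.03 and 3.59, with a median of 0.25, where 9484 of the 19199 genes were above 0 and their median was 0.00. The smallest adjusted p among them was 0.291 in edgeR. Summed over the cluster, beta members had 203 ± 29.5 CPM in Mcph1KO and 129.6 ± 21.1 CPM in WT at E17.5 (SD, n = 2 each), a log2 ratio of 0.65. At P4 the sums were 254 ± 53.3 CPM in Mcph1KO and 211 ± 8.14 CPM in WT. At A6w they were 202 ± 44.7 CPM in Mcph1KO and 188 ± 19.3 CPM in WT. At A18w they were 213 ± 19.1 CPM in Mcph1KO and 175 ± 9.06 CPM in WT. Libraries of the genotypes overlapped at P4 and A6w and were apart at E17.5 and A18w. At E17.5 the median beta member was 0.74 higher on the log2 scale and 22 of 22 were above 0, whereas at A6w the median was 0.10 and 14 of 22 were above 0. At E17.5 the summed pan-neuronal markers (6 of 6 in the file, none at 0) were 4022 to 4096 CPM in Mcph1KO and 4260 to 4321 CPM in WT, and the summed interneuron markers (6 of 6 in the file) 336 to 378 CPM in Mcph1KO and 283 to 342 CPM in WT, where Vip was at 0. Their part in the beta values was not tested.

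Pcdhb1, the member nearest the alpha cluster, gave the largest beta difference from the fewest reads. It had 1 and 10 counts at E17.5, 27 and 19 at P4, 17 and 12 at A6w, and 7 and 12 at A18w in Mcph1KO libraries, against 0 and 0, 1 and 1, 1 and 4, and 0 and 4 counts in WT libraries. The Mcph1KO libraries were above the WT libraries at every stage, with 105 counts in Mcph1KO and 11 counts in WT in all. Scaled by library size, this was 9.46-fold, with an exact interval of 5.08 to 19.5 that covers counting error only. At E17.5 it was at least 3.73-fold higher against a floor of 3 counts over the WT group. The edgeR adjusted p of the averaged difference was 0.291, and DESeq2 called the gene.

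Pcdhb2 had 6.89 and 7.23 CPM at E17.5, 4.89 and 9.37 at P4, 3.99 and 13.0 at A6w, and 5.25 and 9.05 at A18w in Mcph1KO libraries, against 1.82 and 1.73, 2.30 and 4.05, 2.48 and 7.06, and 1.55 and 5.80 CPM in WT libraries. The genotypes were apart at E17.5 and P4 and overlapped at both adult stages, where each genotype's replicate 2 was the higher. Its averaged log2 difference of 1.23 ± 0.34 was not called, but with the replicate number as a block it was 1.27 and called (edgeR adjusted p = 0.019). Pcdhb14 was above WT in both Mcph1KO libraries at all 4 stages, with 7.07 and 7.70 CPM in Mcph1KO and 3.17 and 4.46 CPM in WT at E17.5, and 12.5 and 12.5 CPM in Mcph1KO and 9.25 and 11.4 CPM in WT at A6w. Its averaged difference was 0.51 ± 0.12 on the log2 scale with an edgeR adjusted p of 0.576. It was singled out after its values were seen.

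Counting separation alone, 5 members were above WT in both Mcph1KO libraries at all 4 stages (Pcdha1, Pcdha2, Pcdha3, Pcdhb1 and Pcdhb14), where 21 genes (0.109%) of all 19199 were. Pcdha6 and Pcdha9 were below WT at all 4 stages, where 8 genes (0.0417%) were. No gamma member was separated in either direction at all 4 stages.

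In the gamma cluster the genotypes stood close together when averaged over the stages. The median averaged difference of the 21 members was -0.08, with 8 of 21 above 0, and the values ran between -0.42 and 0.17. The largest were those of Pcdhgb1, at 14.9 CPM in Mcph1KO and 19.1 CPM in WT (log2 -0.42 ± 0.18), and Pcdhgb2, at 15.4 CPM in Mcph1KO and 18.5 CPM in WT (log2 -0.31 ± 0.10), and neither was called. Pcdhgb1 had 11.6 and 8.69 CPM in Mcph1KO and 19.1 and 20.1 CPM in WT at E17.5, and overlapped at P4, A6w and A18w. Pcdhgb2 was below WT in both Mcph1KO libraries at 3 stages and overlapped at E17.5. The cluster summed to 866 CPM in Mcph1KO and 892 CPM in WT. At E17.5 the gamma sum was 813 ± 2.56 CPM in Mcph1KO and 944 ± 44.9 CPM in WT (SD, n = 2 each), and the libraries were apart. There 5 of 21 members were above 0, with a median of -0.21. At P4 the sum was 1019 ± 40.2 CPM in Mcph1KO and 929 ± 110 CPM in WT, and the libraries overlapped.

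At single stages, with 2 libraries against 2, edgeR called no member and no gene at E17.5, P4, A6w or A18w (0% of 19199 genes each). At an unadjusted p under 0.05 there were 19 members at E17.5 (5 alpha, 12 beta and 2 gamma), 11 at P4, 7 at A6w and 9 at A18w, where 303, 718, 763 and 326 genes reached it in all. DESeq2 called 2 members at E17.5 (Pcdha2 and Pcdha6), 2 at P4 (Pcdha2 and Pcdha9), 3 at A6w (Pcdha2, Pcdha6 and Pcdha9) and 1 at A18w (Pcdha2). In the fit with replicate blocks, edgeR called Pcdha2 at E17.5 (adjusted p = 0.0489), A6w (0.0234) and A18w (0.026) and not at P4 (0.16). The test of whether the genotype difference varied over the stages called 0 of 19199 genes (0%) in edgeR and 0 members in DESeq2, and 2 members, Pcdhb16 and Pcdhga6, had an unadjusted p under 0.05, where 435 genes did.

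**Figure D3:**
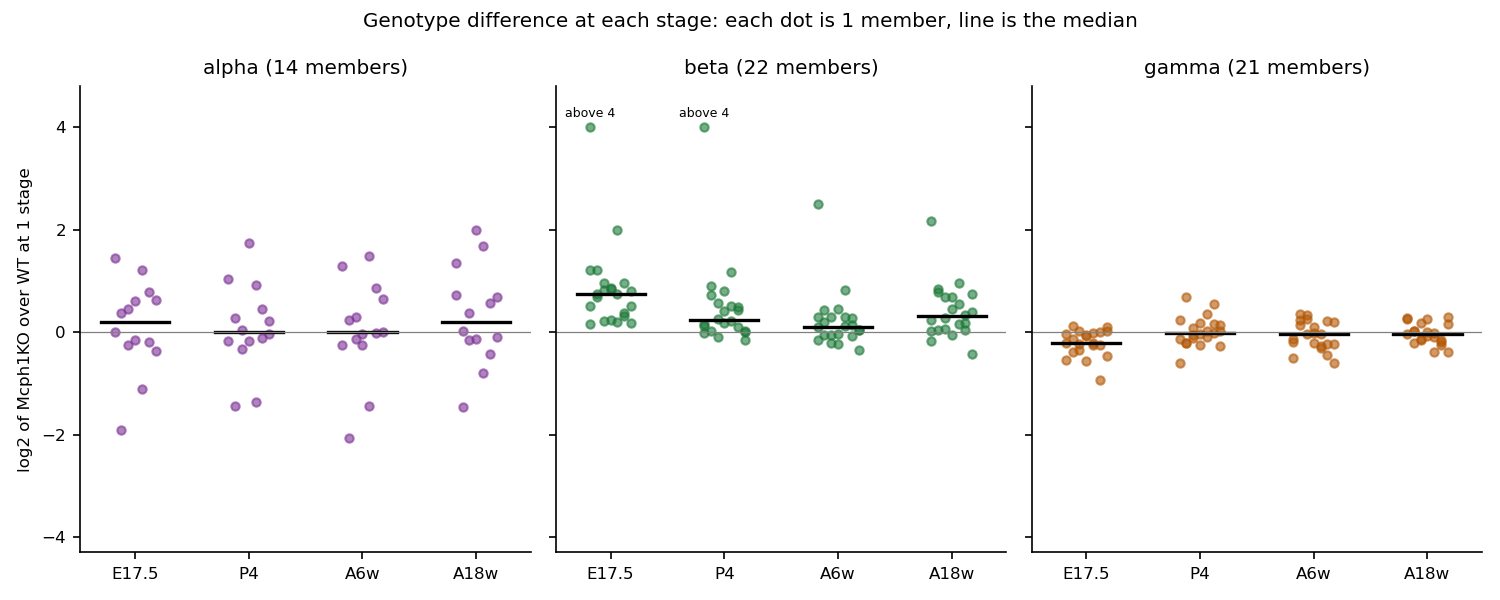
Each dot is 1 member, the vertical axis is the log2 of Mcph1KO over WT at 1 stage, and the line is the median of the cluster, in panels for alpha, beta and gamma. The beta median is 0.74 at E17.5 and 0.10 at A6w, the gamma medians lie between -0.21 and -0.03, and the values of Pcdhb1 at E17.5 and P4, which are above 4, are drawn at 4.

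Of the marker lists of 17 cell types and neighbouring regions, summed per library, some were apart between genotypes at some stages. No list was apart in the same direction at more than 2 stages. With 2 libraries a group, sums can be apart by chance, so separation alone does not show a shift in cell types. At single stages edgeR called no gene between genotypes, and thus none of these markers. The 6 excitatory neuron markers, all in the file, summed to 1033 to 1686 CPM in Mcph1KO and 1310 to 1787 CPM in WT at E17.5, 1058 to 1388 CPM in Mcph1KO and 878 to 1119 CPM in WT at P4, 2263 to 2326 CPM in Mcph1KO and 2211 to 2549 CPM in WT at A6w, and 1970 to 2010 CPM in Mcph1KO and 1957 to 1999 CPM in WT at A18w, overlapping at each stage. Oligodendrocyte markers summed to 4786 to 5145 CPM in Mcph1KO and 5826 to 10750 CPM in WT at A18w, and overlapped at the other 3 stages. At P4 several lists were apart. Meningeal fibroblast markers summed to 432 to 457 CPM in Mcph1KO and 752 to 818 CPM in WT, red blood cell markers to 58.5 to 138 CPM in Mcph1KO and 235 to 294 CPM in WT, pericyte markers to 148 to 174 CPM in Mcph1KO and 232 to 273 CPM in WT, and endothelial markers to 173 to 210 CPM in Mcph1KO and 268 to 282 CPM in WT. Radial glia markers were also lower, at 526 to 563 CPM in Mcph1KO and 602 to 705 CPM in WT, while striatum markers were higher, at 188 to 248 CPM in Mcph1KO and 110.5 to 155 CPM in WT, as were hippocampus markers, at 428 to 461 CPM in Mcph1KO and 284 to 352 CPM in WT. Pan-neuronal markers summed to 6284 to 6477 CPM in Mcph1KO and 6667 to 7128 CPM in WT at A18w. Of the other lists or stages, the groups were also apart with Mcph1KO lower for hippocampus and red blood cell markers at E17.5, striatum markers at A6w, and thalamus and oligodendrocyte precursor markers at A18w, and with Mcph1KO higher for pericyte markers at E17.5, red blood cell markers at A6w, and endothelial and microglia markers at A18w. Choroid plexus markers differed within groups and were also apart at E17.5, with Mcph1KO lower, at 6.05 and 460 CPM in Mcph1KO and 723 and 972 CPM in WT. Their part in the differences was not tested.

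Over the stages, the 5 C-type members took courses of their own. Pcdhgc5, which in mice is known from work on inhibitory synapses, was the member with the steepest course: it had 6.28 and 8.90 CPM in Mcph1KO and 8.27 and 5.94 CPM in WT at E17.5, 12.1 and 14.6 CPM in Mcph1KO and 11.2 and 13.1 CPM in WT at P4, 167 and 269 CPM in Mcph1KO and 194 and 319 CPM in WT at A6w, and 169.7 and 198 CPM in Mcph1KO and 140 and 159 CPM in WT at A18w. All 8 adult libraries were above all 8 libraries of E17.5 and P4, and the genotypes overlapped at E17.5, P4 and A6w and not at A18w, where Mcph1KO was higher. Replicate 2 of Pcdhgc5 was the higher in each genotype at P4, A6w and A18w. At A6w Pcdhgc5 averaged 237 CPM, against 12.7 CPM at P4, a log2 difference of 4.22 ± 0.22 with an edgeR adjusted p of 1.29e-08. At P4 it was 0.79 ± 0.20 higher than at E17.5 (edgeR adjusted p = 0.0095). Per kb it ranked 42 among the 57 members at E17.5, 40 at P4, 1 at A6w and 2 at A18w.

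Pcdhgc3, which in mice promotes dendrite branching, was lower in adults. It had 284 and 273 CPM in Mcph1KO and 322 and 347 CPM in WT at E17.5, 275 and 276 CPM in Mcph1KO and 179 and 253 CPM in WT at P4, 114 and 126 CPM in Mcph1KO and 118.5 and 128 CPM in WT at A6w, and 94.5 and 125.5 CPM in Mcph1KO and 116 and 105 CPM in WT at A18w. The adult libraries were below those of both earlier stages. The Mcph1KO libraries were below WT at E17.5 and above WT at P4, overlapping at both adult stages, and the test of the genotype by stage difference gave an unadjusted p of 0.159 in edgeR. At A6w against P4 Pcdhgc3 fell by 1.00 ± 0.13 on the log2 scale (edgeR adjusted p = 2.13e-05), and at P4 it differed from E17.5 by -0.32 ± 0.13 (edgeR adjusted p = 0.0595, or 0.0385 with the replicate block).

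Pcdhgc4, needed in mice for the survival of cortical interneurons, varied widely between libraries of a group. It had 97.3 and 78.6 CPM in Mcph1KO and 82.1 and 127 CPM in WT at E17.5, 171 and 139.7 CPM in Mcph1KO and 120.1 and 157 CPM in WT at P4, 213 and 46.9 CPM in Mcph1KO and 180.4 and 125 CPM in WT at A6w, and 291 and 119.6 CPM in Mcph1KO and 308 and 153 CPM in WT at A18w. At both adult stages replicate 1 was the higher in each genotype. The genotypes overlapped at every stage, and no stage step was called in edgeR (0.61 ± 0.40 for P4 against E17.5, -0.06 ± 0.40 for A6w against P4). At A18w the libraries with the higher Pcdhgc4 also had the higher summed striatum markers (6 of 6 in the file, none at 0), with 1573 and 647.5 CPM in Mcph1KO and 2039 and 436 CPM in WT, while at A6w these were 191 and 183 CPM in Mcph1KO and 309 and 218 CPM in WT. Their part in the Pcdhgc4 values was not tested.

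Pcdhac2, which in mice serves the spacing of serotonergic axons, had 29.5 and 41.1 CPM in Mcph1KO and 43.7 and 47.4 CPM in WT at E17.5, 84.1 and 95.5 CPM in Mcph1KO and 76.5 and 109 CPM in WT at P4, 100.1 and 106 CPM in Mcph1KO and 90.7 and 116 CPM in WT at A6w, and 71.9 and 82.1 CPM in Mcph1KO and 79.4 and 86.1 CPM in WT at A18w. It rose by 1.19 ± 0.14 on the log2 scale at P4 against E17.5 and was not called at A6w against P4 (0.18 ± 0.14, edgeR adjusted p = 0.293). Pcdhac1 averaged 4.48 CPM at E17.5, 7.32 at P4 and 12.7 at A6w, and rose in both steps, by 0.71 ± 0.19 (edgeR adjusted p = 0.0121) and 0.79 ± 0.19 (edgeR adjusted p = 0.00327). At A18w its libraries had 6.76 and 10.2 CPM in Mcph1KO and 11.3 and 11.4 CPM in WT.

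**Figure D4:**
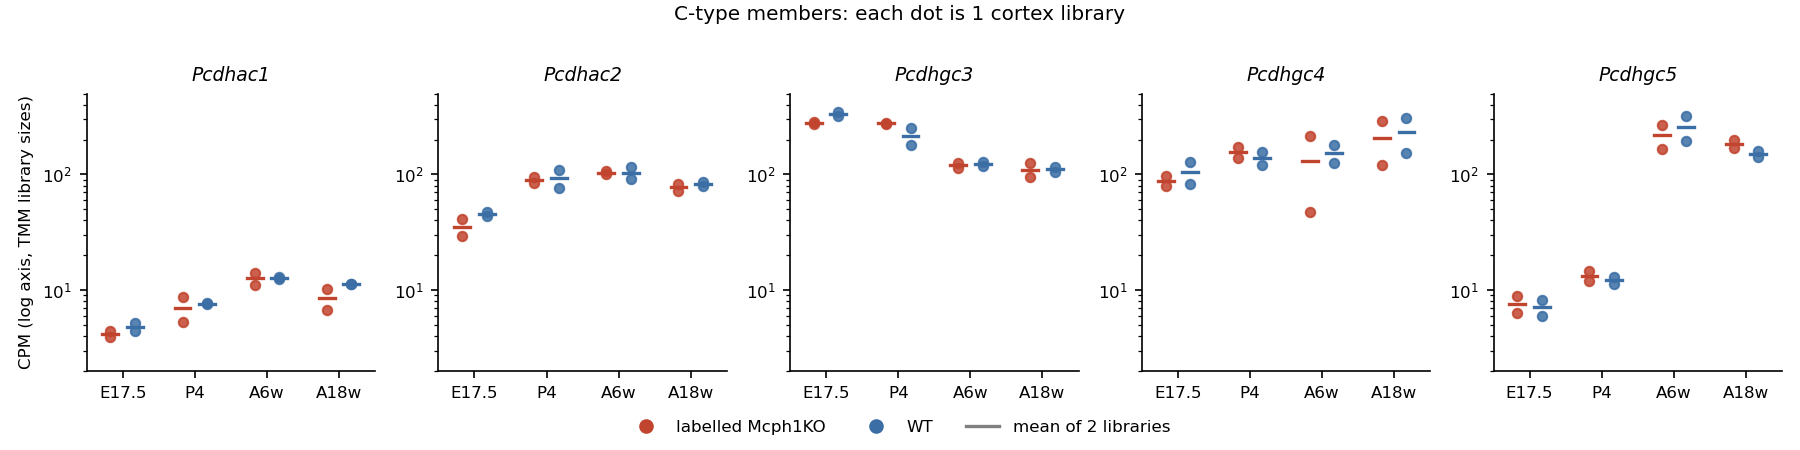
Levels of Pcdhac1, Pcdhac2, Pcdhgc3, Pcdhgc4 and Pcdhgc5 in CPM on a log axis for each of the 16 cortex libraries, as dots by stage, with Mcph1KO left of WT and a line at the mean of 2 libraries. Pcdhgc5 lies below 15 CPM at E17.5 and P4 and above 130 CPM in adults. Pcdhgc3 is lower in adults than at E17.5 and P4, and the Pcdhgc4 libraries of A6w Mcph1KO lie far apart.

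At P4 against E17.5, called members all rose: 13 of 14 alpha, 8 of 22 beta and 7 of 21 gamma members were called higher and none lower, where 18.9% of all genes were called higher and 17.9% lower. The uncalled alpha member was Pcdha8. Median log2 differences were 1.00 in alpha, 0.50 in beta and 0.20 in gamma, against 0.03 over all genes. In alpha, Pcdha5 averaged 45.4 CPM at P4, against 14.9 CPM at E17.5 (log2 1.61 ± 0.18, edgeR adjusted p = 6.8e-05), and Pcdha12 52.3 CPM at P4, against 24.8 CPM at E17.5 (log2 1.08 ± 0.20). In beta, Pcdhb13 averaged 7.34 CPM at P4, against 3.06 CPM at E17.5 (log2 1.29 ± 0.19), with Pcdhb12 at 1.00 ± 0.21 and Pcdhb9 at 0.72 ± 0.22. In gamma, Pcdhgb1 averaged 24.9 CPM at P4, against 14.9 CPM at E17.5 (log2 0.82 ± 0.26), and Pcdhga8 26.8 CPM at P4, against 16.8 CPM at E17.5 (log2 0.70 ± 0.14). These members were named on the condition that libraries of the 2 stages did not overlap. The count of 28 called members was 17 without replicate 1 of E17.5 WT and 8 without both E17.5 libraries numbered 1.

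At A6w against P4, most alpha and gamma members fell, and few beta members were called. In alpha, 10 of 14 were called lower and Pcdhac1 higher; in gamma, 16 of 21 were called lower and Pcdhgc5 higher; in beta, 4 of 22 were called lower and Pcdhb14 higher, where 27.3% of all genes were called higher and 27.8% lower. The median log2 differences were -0.98 in alpha, -0.12 in beta and -0.67 in gamma, against -0.06 over all genes. Pcdha2 averaged 11.5 CPM at A6w, against 41.8 CPM at P4 (log2 -1.98 ± 0.15), Pcdha9 11.2 CPM, against 37.0 CPM (log2 -1.74 ± 0.19), and Pcdha5 16.4 CPM, against 45.4 CPM (log2 -1.48 ± 0.18). Pcdhgb6 averaged 22.0 CPM at A6w, against 55.3 CPM at P4 (log2 -1.34 ± 0.13), with Pcdhga1 at -1.15 ± 0.18 and Pcdhga11 at -1.10 ± 0.11. In beta, Pcdhb7 averaged 12.6 CPM at A6w, against 22.7 CPM at P4 (log2 -0.83 ± 0.18), with Pcdhb19 at -0.72 ± 0.18 and Pcdhb20 at -0.66 ± 0.16. These falls were named on the condition of no overlap between the stages. Pcdhb14, named without that condition, rose by 0.44 ± 0.17, and its libraries overlapped between the stages. Over the same step the 6 oligodendrocyte markers summed to 4577 to 8111 CPM at A6w, against 83.3 to 117 CPM at P4, and the 6 radial glia markers to 77.0 to 96.8 CPM at A6w, against 526 to 705 CPM at P4. Their part in these values was not tested.

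At A18w against A6w, edgeR called 0 of the 57 members, where 0.104% of all genes were called higher and 0.0313% lower. At an unadjusted p under 0.05, 3 members were higher (Pcdhga6, Pcdhga8 and Pcdhgb6) and 7 lower, where 734 genes were higher and 972 lower in all. DESeq2 called 1, Pcdha3, at -0.59 on the log2 scale. Pcdhgc5 averaged 167 CPM at A18w, against 237 CPM at A6w (log2 -0.51 ± 0.19, edgeR adjusted p = 0.44), and Pcdhgc4 218 CPM at A18w, against 141 CPM at A6w (log2 0.63).

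The stage courses changed the make-up of each cluster per kb of transcript. In gamma, Pcdhgc5 held 0.847% of the cluster at E17.5, 1.32% at P4, 28.3% at A6w and 20.5% at A18w, as means of 4 libraries. Pcdhgc3 held 35.3%, 25.5%, 14.9% and 13.7% at those stages, and Pcdhgc4 10.3%, 14.3%, 16.4% and 24.8%. In alpha, Pcdhac2 held 16.8% at E17.5, 18.1% at P4, 35.0% at A6w and 31.9% at A18w. Over all 16 cortex libraries the leading alpha members were Pcdhac2 (25.5%), Pcdha12 (12.3%) and Pcdha4 (8.72%), the leading beta members Pcdhb7 (9.77%), Pcdhb20 (9.40%) and Pcdhb17 (9.31%), and the leading gamma members Pcdhgc3 (22.3%), Pcdhgc4 (16.4%) and Pcdhgc5 (12.7%).

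The effective number of members, which is the number of equally used members that would give the same sum of squared shares, summarises how evenly a cluster was used. In alpha it was 9.52 to 10.2 at E17.5, 9.57 to 10.1 at P4, 5.63 to 6.19 at A6w and 5.88 to 7.14 at A18w, so every adult library had a less even alpha cluster than every earlier one. In beta it lay between 14.7 and 18.2 in all 16 libraries. In gamma it was 6.14 to 6.81 at E17.5, 8.21 to 10.9 at P4, 6.05 to 7.29 at A6w and 5.87 to 8.86 at A18w, with the P4 libraries above those of E17.5 and A6w and overlapping those of A18w.

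**Figure D5:**
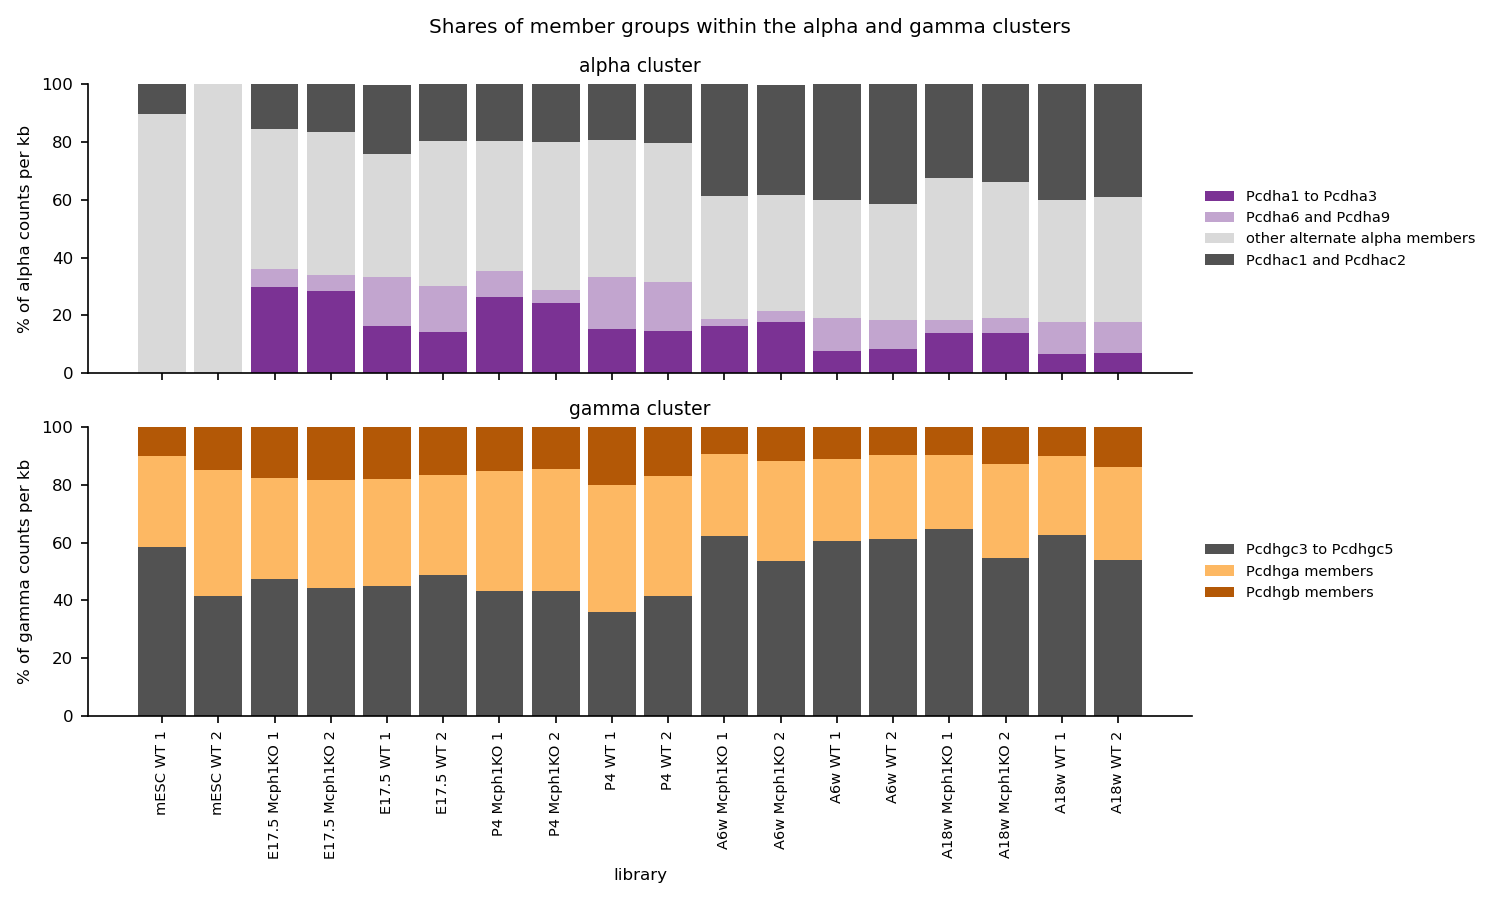
Stacked bars give, for each library, the percent of the alpha cluster (top) and gamma cluster (bottom) per kb held by groups of members. The groups Pcdha1 to Pcdha3 and Pcdha6 with Pcdha9 were chosen by their calls in the same cortex libraries. In alpha the Pcdha1 to Pcdha3 part is larger and the Pcdha6 and Pcdha9 part smaller in Mcph1KO bars than in WT bars of the same stage, and in gamma the part of Pcdhgc3 to Pcdhgc5 is 53.7% to 64.6% in adult libraries, against 36.1% to 49.0% at E17.5 and P4.

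In embryonic stem cells, cultured cells of a line rather than tissue, few counts fell on members outside the gamma cluster. All 56 members tested were called lower in mESC than in E17.5 WT cortex, where 35.3% of genes were called lower and 32.7% higher. The mESC libraries held 9 and 15 alpha counts and 40 and 84 beta counts, against 2722 and 1772 gamma counts, and gamma members made up 98.3% and 94.5% of the members' counts per kb. In alpha 10 members had no count. The counts in replicates 1 and 2 were 1 and 7 for Pcdha4, 0 and 8 for Pcdha12, 7 and 0 for Pcdha7, and 1 and 0 for Pcdhac2. In beta 7 members had no count, and in gamma none.

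With a floor of 3 counts over the mESC group for members without a count, the median member was at least 177-fold lower in alpha and at least 48.9-fold lower in beta, and 13.7-fold lower in gamma. Pcdha9 was at least 308-fold lower, Pcdha3 at least 241-fold and Pcdha11 at least 237-fold, and in beta Pcdhb20 at least 173-fold, Pcdhb5 at least 100.5-fold and Pcdhb9 at least 97.4-fold. In gamma, Pcdhga6 had 3 counts in mESC and 1659 in E17.5 WT, a 404-fold difference with an interval of 138 to 1961 that covers counting error only. Pcdhgb1 was 46.8-fold lower and Pcdhga4 38.1-fold lower.

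Pcdhgc4 and Pcdhgc3 held the largest shares of the gamma cluster in stem cells. Pcdhgc4 averaged 32.9 CPM in mESC and 100.8 CPM in E17.5 WT (log2 -1.62 ± 0.42, edgeR adjusted p = 0.00601), Pcdhgc3 17.2 CPM in mESC and 322.5 CPM in E17.5 WT (log2 -4.23 ± 0.44), and Pcdhgc5 0.707 CPM in mESC and 6.86 CPM in E17.5 WT (log2 -3.28 ± 0.36). By replicate, the mESC libraries had 44.7 and 21.1 CPM of Pcdhgc4, 25.5 and 8.83 of Pcdhgc3, and 0.884 and 0.529 of Pcdhgc5. By mean share of the gamma cluster per kb, Pcdhgc4 (32.03%), Pcdhgc3 (17.3%) and Pcdhga12 (10.5%) led in mESC. In beta Pcdhb17 (25.2%), Pcdhb7 (18.8%) and Pcdhb14 (10.9%) led, the beta shares resting on 124 counts. Pcdhb17 held 13.1% in replicate 1 and 37.3% in replicate 2, from 5 and 32 counts. Defining markers followed the labels: the 6 pluripotent stem cell markers summed to 6486 to 6511 CPM in mESC and 1.43 to 2.63 CPM in E17.5 WT, and the 6 excitatory neuron markers to 4.17 to 16.7 CPM in mESC, with Neurod6 at 0, and 1262 to 1754 CPM in E17.5 WT.

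No regulator of promoter choice was called between genotypes. The list held 25 genes that encode CTCF, cohesin and its loaders, DNA methyltransferases and demethylases, and chromatin silencers of the clusters. Averaged over the stages, 0 were called in edgeR, 0 had an unadjusted p under 0.05 and 0 were called by DESeq2. Of all genes, 0.0417% were called higher and 0.0104% lower in edgeR, and 1.31% were higher and 0.906% lower at such a p. With so few genes called in all, 0 of 25 does not set the regulators apart. Trim28, a corepressor, differed by -0.02, Ehmt2, a histone methyltransferase, by 0.01, and Rad21, a cohesin subunit, by -0.02 on the log2 scale. Over the stages 16 of the 25 fell at P4 against E17.5 and 18 fell at A6w against P4, none rising in either step, where 17.9% and 27.8% of all genes were called lower. Trim28 averaged 117 CPM at A6w, against 309 CPM at P4 (log2 -1.40), Setdb1 fell by 1.25, Ehmt1 by 1.30 and Tet1 by 1.85 at that step. At P4 Hells fell by 1.72, Ehmt1 by 0.91, Wapl by 0.69 and Smc1a by 0.64, and at A18w against A6w 0 of the 25 were called in edgeR and 5 had an unadjusted p under 0.05. In mESC against E17.5 WT 12 were called higher, among them the methyltransferase Dnmt3b at 4.96 and Tet1 at 2.25, and 6 lower, among them the demethylase Tet3 at -4.48, where 32.7% of all genes were called higher and 35.3% lower.

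The cytoplasmic partners, other protocadherins and chromosomal neighbours also gave 0 calls between genotypes averaged over the stages in edgeR or DESeq2. None had an unadjusted p under 0.05 either, beside the same small shares of all genes. At single stages, 1 of the other protocadherins had such a p at E17.5, 1 at P4 and 1 at A18w, and 1 of the neighbours at A6w. Over all genes, 303 reached it at E17.5, 718 at P4, 763 at A6w and 326 at A18w. Among 16 partners of the cytoplasmic ends, which are kinases, the WAVE actin regulators and MARCKS, 6 rose and 2 fell at P4, and 8 rose and 4 fell at A6w, where 18.9% of all genes were called higher and 17.9% lower at P4, and 27.3% higher and 27.8% lower at A6w. Ptk2b, a kinase bound by alpha and gamma ends, rose by 3.07 at P4 and by 2.79 at A6w on the log2 scale, Cyfip2, a WAVE subunit, rose by 1.75 at A6w, and Marcks fell by 1.88 at A6w. Among 12 protocadherins outside the clusters, 7 rose and 1 fell at P4, 4 rose and 6 fell at A6w, and all 12 were lower in mESC. Of these Pcdh9 rose by 0.87 in each of the first 2 steps, and Pcdh18 fell by 2.13 and Pcdh1 rose by 1.31 at A6w.

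Genes next to the clusters on the chromosome, 12 of 13 tested, had averaged genotype differences near 0, with Zmat2, Ik and Hars on the alpha side at 0.05, -0.01 and 0.04 and Rell2 on the gamma side at -0.08. At P4 2 of them rose and 3 fell, at A6w 3 rose and 4 fell, and in mESC 6 were higher and 3 lower, beside the same shares of all genes in the cortex and 32.7% higher and 35.3% lower in mESC. Taf7, which lies between the beta and gamma clusters, fell by 0.77 at A6w and was 3.38 higher in mESC on the log2 scale. At A18w against A6w none of these 3 groups had a member called in edgeR, and 1 of the partners, 3 of the other protocadherins and 0 of the neighbours had an unadjusted p under 0.05.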

How the data were processed

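Whole-number estimated counts per gene were deposited by the authors for 18 libraries. Per the submitters' processing notes, Trimmomatic 0.39, FastQC and Salmon 1.4.0 were used with the GRCm38.p6 assembly; per the labels' protocols, libraries were made with a NEBNext Ultra RNA kit. Strandedness is not given in the sources used here, so reads of the antisense gene models inside the clusters cannot be told apart from those of the members. Symbols were matched for 54107 of 54281 rows, and transcript lengths are those of the longest protein-coding GENCODE M21 transcript.

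The test was edgeR's quasi-likelihood F test (edgeR 4.0.16, R 4.3.3) after TMM scaling and filterByExpr, set to a minimum count of 10 and a minimum total of 15, in 1 fit of the 16 cortex libraries (19199 genes) and 1 of the 10 wild-type libraries (19466 genes), with 1 mean per group. The pooled spread of each fit rests on 8 and 5 residual degrees of freedom. DESeq2 1.42.0, RLE scaling, no filter, all 18 libraries in 1 fit, leaving out libraries and a replicate block were the alternatives. The tests were tested on simulated data before use. In the replicate block, the replicate numbers in the titles were treated as pairing libraries across genotypes, and the main fit had no block. Deviations of same-numbered libraries from the group means correlated at 0.65 (E17.5), 0.254 (P4), 0.112 (A6w) and 0.388 (A18w). The labels do not say what a number marks. Replicates of a group correlated at 0.972 to 0.986, and no pair agreed within sampling noise.

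The members and gene lists were chosen with earlier results of these data known. Named with values are members called between genotypes, the C-type members, in each cluster the 3 largest shares, up to 3 called rises and falls per step whose libraries do not overlap and that reach 1 CPM, the 2 uncalled members of largest averaged difference, and up to 4 genes of each list, called ones of smallest adjusted p first. Sums, shares and effective numbers are descriptions without a test. The values of 1 gene of the list of regulators are not reported here.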

Additional observations from a re-analysis of the deposited data

How the results depend on the processing

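Averaged over the stages, 5 members were called between genotypes, against 7 with DESeq2, 5 with RLE scaling, 12 without the filter, 3 with all 18 libraries in 1 fit, 6 with the replicate block, 1 without both E17.5 libraries numbered 1, and 3 to 4 leaving out single libraries. At single stages, where edgeR called 0, DESeq2 called 2 at E17.5, 2 at P4, 3 at A6w and 1 at A18w, the fit without the filter 7, 5, 4 and 4, the replicate block 1 at E17.5, A6w and A18w and 0 at P4, and single omissions 0 except 0 to 1 at A18w. The count for P4 against E17.5 was 28, and 8 without both E17.5 libraries numbered 1 and 17 to 28 leaving out single libraries; that for A6w against P4 was 27 to 35. For A18w against A6w, DESeq2 called 1 and the fit without the filter 2. The genotype by stage count was 0 and the mESC count 56 in every setting run. Fits that leave out libraries rest on fewer samples. Otherwise the cause was not tested. The numbers of all genes called in the alternatives are not given here. Their counts of members called therefore stand without the share over all genes. Leaving out single libraries, the averaged genotype difference of Pcdhgc4 (-0.12) ran from -0.488 to 0.06, that of Pcdhgc5 (0.07) from -0.026 to 0.172 and that of Pcdhgc3 (0.01) from -0.048 to 0.077, and Pcdhgc4 at A6w against P4 (-0.06) from -0.792 to 0.302, each changing sign. Without both E17.5 libraries numbered 1, Pcdhgc3 also turned, to -0.012. The Pcdhb14 share difference between genotypes was 0.238 points per kb and 0.574 points by counts. The replicate block changed no call of a named member other than those given in the report for Pcdhb2, Pcdha2 and Pcdhgc3. With 2 libraries a group, depth limits Pcdhb1 and the alpha and beta members in mESC most.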
